A study of Mus musculus with 2 samples.

Results

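A set of 8 lysosomal genes, of 22802 gene symbols in the count tables, is described here across the cells of mouse blastocysts and of embryoids built from cultured stem cells. They were taken by name: the cathepsins Ctsb, Ctsc, Ctsd, Ctsh, Ctsl and Ctsz, the asparaginyl endopeptidase legumain (Lgmn), and prosaposin (Psap), the precursor of the saposins. All 8 were detected in both libraries, and they were chosen with earlier results of these data known.

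Single-cell RNA was sequenced with the BD Rhapsody whole transcriptome kit in 1 library of whole E4.5 blastocysts of the mouse strain B6C3F1 and in 1 library of embryoids. The embryoids were made from 10000 embryonic stem (ES) cells derived from Lifeact-RFPRuby mice and 50000 to 80000 XTE cells, which had been reprogrammed from ES cells carrying Gata6-H2B:Venus and which the series title calls trophectoderm-like. ES cells had been kept with serum, Lif (4 ng/ml) and the kinase inhibitors CHIR99021 (3 μM) and PD0325901 (0.4 μM). XTE cells had been kept without serum, with CHIR99021 (3 μM), the growth factors Activin (20 ng/ml), Fgf4 (25 ng/ml) and BMP4 (50 ng/ml), and heparin (1 μg/ml). The mixture spent 48 h in aggregation wells and 48 h in cell-repellent plates, and 6000 dissociated cells were used for each library. How many embryos or embryoids were pooled is not given in the labels, and with 1 library a group, a difference between the libraries cannot be told apart from a difference between embryoid and blastocyst.

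Lysosomal proteases are made as inactive precursors, carried to the acidic lysosome and trimmed there to active enzymes, often by one another. Prosaposin travels the same route and is cut into 4 small saposins, cofactors that present sphingolipids to the lysosomal hydrolases. The endoderm of the early mouse embryo is an absorptive tissue: it takes up protein from its surroundings through receptors such as cubilin and megalin and degrades it in large lysosomes. Trophectoderm, the outer layer of the blastocyst, makes the first contact with the uterus and later forms placental tissue, in which rodents express a cluster of additional cathepsin L-like proteases.

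After filtering, 1080 of 1288 blastocyst barcodes and 5328 of 5546 embryoid barcodes were analysed, with a median of 9273 and 4768.5 unique molecular identifiers (UMIs, counts of captured transcripts) per cell. Of these barcodes 7 occur in both libraries. Clusters were named from marker genes with the ending -like. The blastocyst held 376 cells with trophectoderm markers (TE-like), 446 with primitive endoderm markers (PrE-like) and 258 with epiblast markers (EPI-like). The embryoid library held 4699 PrE-like cells (88.2%), 108 EPI-like cells and 105 cells with fibroblast or extraembryonic mesoderm markers (FIB-like), and 416 cells in 2 clusters stayed unnamed. No embryoid cluster took the TE-like name, although the labels describe the XTE cells as the larger input. The 18 trophectoderm markers summed to 781 CPM (UMIs scaled to a common total) in embryoid PrE-like cells against 9510 CPM in blastocyst TE-like cells. Single markers differed. Dppa1 had no UMI in any of the 4419 embryoid PrE-like cells thinned to 2000 UMIs (exact 95% upper limit 0.0834%). Krt18 had a UMI in 58.9% of the same cells, against 95.6% of thinned TE-like cells. Summed primitive endoderm markers were close in both PrE-like classes, at 17800 CPM in the embryoid and 18600 CPM in the blastocyst. The same markers had named both classes, and single markers differed in both directions. Gata6 stood at 164.6 CPM in the embryoid against 706.4 CPM in the blastocyst, and Col4a1 at 4459 against 2421 CPM.

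Stretches of DNA upstream of RefSeq transcription starts are shown because several of the 8 genes varied together between cell classes. The window was the 250 bases before each RefSeq transcription start (build GRCm38.p6). Promoters were found for 6 of the 8 genes, with 8 starts between them, and Ctsb and Ctsh had no entry. Searched on both strands were CACGTG, the core recognised by the MiT/TFE family of transcription factors (Tfeb, Tfe3, Mitf, Tfec) that control lysosomal genes, TGAGTCA, recognised by AP-1, and AGATAA, recognised by GATA factors. CACGTG is in 6.02% of the 32851 promoters in the table, TGAGTCA in 4.46% and AGATAA in 9.99%. CACGTG occurred before Ctsd, Ctsl and 1 of the 2 starts of Lgmn, with 2 copies before Ctsd, and TGAGTCA occurred before Psap. AGATAA occurred before Ctsz and before the other start of Psap. RefSeq and GENCODE M21 place some starts differently. By the GENCODE spans, the Ctsl site, the Lgmn site and the Ctsd site nearer the start lie inside the annotated gene. The AGATAA site of Psap does so too. These sites are therefore upstream only of the RefSeq start used. These 30-base surroundings run 5′ to 3′ on the gene's strand, with the motif in capitals, and the outer Ctsd site is shown with 23 bases because the window ends there.
Ctsd, starting 98 bases before the start, chr7:142387908-142387937, minus strand: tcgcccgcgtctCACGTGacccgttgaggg
Ctsd, starting 245 bases before the start, chr7:142388055-142388077, minus strand: tccccCACGTGacctgtatccag
Ctsl, starting 236 bases before the start, chr13:64370739-64370768, minus strand: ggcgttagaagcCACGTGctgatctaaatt
Lgmn, starting 49 bases before the start, chr12:102439124-102439153, minus strand: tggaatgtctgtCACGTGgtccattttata
Psap, starting 18 bases before the start, chr10:60277598-60277627, plus strand: gctgcgcgacgcTGAGTCAagctgcgccca
A match describes letters and is no evidence that a factor binds there.

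Psap, the saposin precursor, was the most abundant of the 8 genes in the trophectoderm and far lower in every other class. TE-like cells held 23604 Psap UMIs, or 6581 CPM (95% interval 6500 to 6670), and Psap was the gene at rank 12 of the 15312 detected in that class. EPI-like cells held 253.5 CPM (235 to 273) and PrE-like cells 238.0 CPM (223 to 253). In the embryoid library Psap stood at 150.0 CPM (123 to 181) in EPI-like, 342.9 CPM (336 to 350) in PrE-like and 250.6 CPM (206 to 303) in FIB-like cells. Every class outside the trophectoderm thus lay between 150.0 and 342.9 CPM, and the blastocyst EPI-like, embryoid FIB-like and blastocyst PrE-like levels did not differ beyond counting error.

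The high Psap level was spread over nearly all TE-like cells rather than resting on a few. The cell at the 10th percentile of the class held 2530 CPM, the median cell 5745 CPM and the cell at the 90th percentile 12590 CPM. After thinning to 2000 UMIs, 359 of 364 TE-like cells (98.6%, exact 95% interval 96.8 to 99.6) still had a Psap UMI, against 44.8% of EPI-like and 34.6% of PrE-like cells of the blastocyst. Unthinned shares were 98.7%, 82.6% and 73.5%, at median depths of 8605.5, 9864.5 and 9398 UMIs. The keratin Krt18, a trophectoderm marker, had a UMI in 0.806% of thinned EPI-like and 0.976% of thinned PrE-like cells, below the Psap shares there. Its TE-like level was also lower than that of Psap, at 2161 CPM. In the embryoid library Krt18 had a UMI in 58.9% of thinned PrE-like cells, so it is not absent from every PrE-like class. Psap in EPI-like and PrE-like cells stood at 3.85% and 3.62% of its TE-like level, inside the range of the 15 trophectoderm markers there (0% to 24.8%, median 0.956%, and 0.107% to 62.2%, median 0.572%). The part of RNA from TE-like cells in these Psap levels was not tested.

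Within the trophectoderm the level of Psap varied 3.36-fold between clusters. The largest TE-like cluster, of 256 cells, held 5474 CPM. A cluster of 77 cells led by Ctsll3, BC051665 and Krt19 held 12150 CPM, and a cluster of 43 cells led by Cald1 and Irx3 and with Elf5 among its leading genes held 3615 CPM. Ctsll3 and BC051665 are genes of the cathepsin L-like cluster on chromosome 13, at 13:60798250-60802849 and 13:60781887-60786364. BC051665 held 3792 CPM in the 77-cell cluster, 235.3 CPM in the largest and 178.5 CPM in the smallest, and Ctsll3 held 581.4, 0.421 and 41.5 CPM. Ctsc, the dipeptidyl peptidase, was highest in the same 77-cell cluster at 512.8 CPM, against 152.8 CPM in the largest and 284.3 CPM in the smallest.

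Ctsl, the cysteine endopeptidase cathepsin L, was the leading protease of the PrE-like cells in both libraries. Blastocyst PrE-like cells held 2234 CPM (95% interval 2190 to 2280), rank 33 of 16576 detected genes, and embryoid PrE-like cells 2993 CPM (2970 to 3010), rank 18 of 20329. EPI-like cells held 292.5 CPM in the blastocyst and 647.1 CPM in the embryoid, TE-like cells 336.8 CPM and FIB-like cells 733.4 CPM. The 2 PrE-like classes lay above every other named class, and embryoid FIB-like and EPI-like levels did not differ beyond counting error.

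Ctsb, cathepsin B, an endopeptidase that also removes dipeptides from carboxyl ends, was likewise highest in the 2 PrE-like classes, at lower levels. It stood at 385.2 CPM (366 to 405) in blastocyst and 672.9 CPM (663 to 683) in embryoid PrE-like cells. The remaining classes held 250.6 CPM in FIB-like, 179.1 CPM in embryoid EPI-like, 147.4 CPM in blastocyst EPI-like and 100.9 CPM in TE-like cells, and the 2 EPI-like levels overlapped. Ctsz, the carboxypeptidase cathepsin Z, was at 205.2 CPM (192 to 220) and 200.0 CPM (195 to 206) in the 2 PrE-like classes, which did not differ beyond counting error. It had 9.093 CPM in blastocyst EPI-like, 16.73 CPM in TE-like, 63.88 CPM in embryoid EPI-like and 74.26 CPM in FIB-like cells.

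Ctsh, the aminopeptidase cathepsin H, had the widest range of the 8 genes over the 6 classes, with a low end that rests on 1 UMI. That UMI, counted over 258 EPI-like cells of the blastocyst, gives a level of 0.3789 CPM (0.00959 to 2.11). The level was 12.83 CPM (9.39 to 17.1) in TE-like and 26.26 CPM (21.5 to 31.7) in PrE-like cells of the blastocyst, and 552.9 CPM (544 to 562) in embryoid PrE-like cells. After thinning, 53.0% of embryoid PrE-like cells and 4.15% of blastocyst PrE-like cells had a Ctsh UMI (unthinned 70.8% and 15.5%, at median depths of 4843 and 9398 UMIs).

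Lgmn, which cleaves after asparagine and trims several cathepsins to their mature form, stood at 166.1 CPM (154 to 179) in blastocyst and 564.8 CPM (556 to 574) in embryoid PrE-like cells. It reached 85.87 CPM in TE-like cells and 21.98 CPM in EPI-like cells of the blastocyst. Ctsc, which removes dipeptides from amino ends, was the protease with its highest blastocyst level in TE-like cells, at 243.7 CPM (228 to 260), followed by 171.4 CPM (159 to 185) in PrE-like and 64.03 CPM (54.7 to 74.4) in EPI-like cells. Ctsd, the aspartic endopeptidase cathepsin D, was nearly level across the blastocyst, with 59.86 CPM in EPI-like, 62.0 CPM in PrE-like and 48.23 CPM in TE-like cells. Only embryoid PrE-like cells, at 323.4 CPM (317 to 330), had a Ctsd level beyond counting error above the class next in order.

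**Figure D1:**
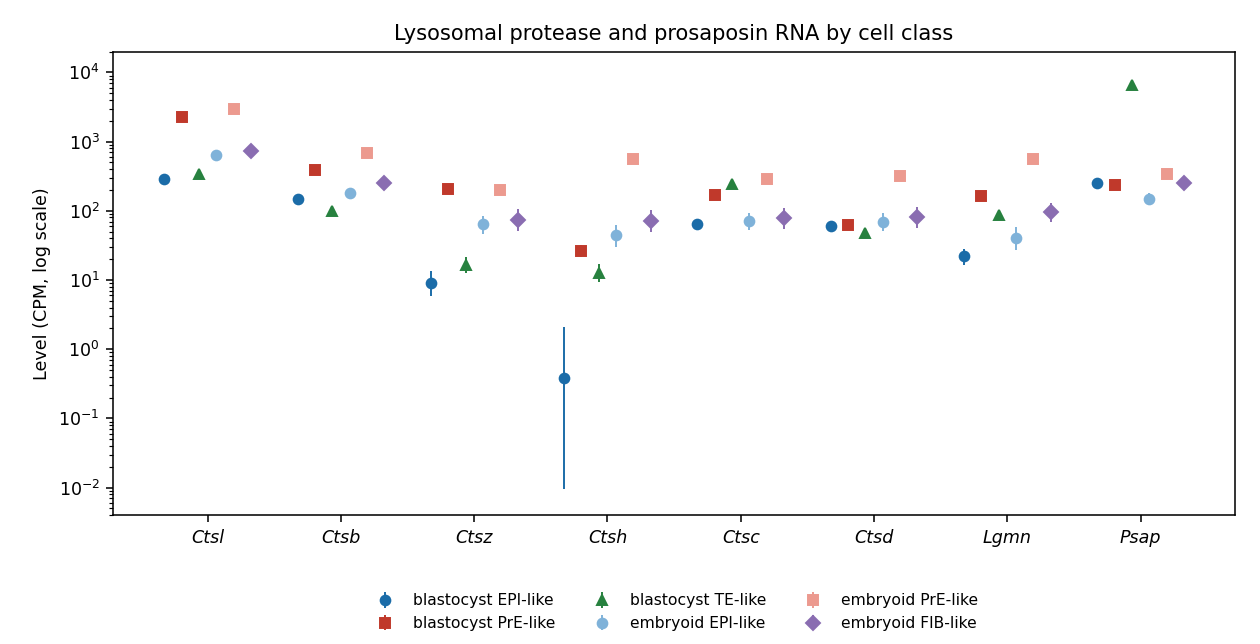
Level of each gene (CPM, log axis) in the 3 blastocyst and 3 embryoid cell classes; points are UMIs summed over the cells of 1 library and bars are exact 95% Poisson intervals, which cover counting error only. Psap in TE-like cells (6581 CPM) lies far above its level in the other 5 classes, while Ctsl, Ctsb and Ctsz are highest in both PrE-like classes and Ctsh, Lgmn and Ctsd in the embryoid PrE-like class.

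The make-up of the lysosomal RNA differed between lineages. The 8 genes together took 0.743% of all UMIs in TE-like cells, 0.349% in blastocyst PrE-like and 0.0849% in blastocyst EPI-like cells. Of the UMIs of the 8 genes in TE-like cells, Psap made up 88.6% (exact 95% interval 88.2 to 89.0) and Ctsl 4.54%. In blastocyst PrE-like cells Ctsl made up 64.0% (63.3 to 64.8), Ctsb 11% and Psap 6.82%. EPI-like cells of the blastocyst had a mixed make-up, with 34.5% Ctsl, 29.9% Psap and 17.4% Ctsb. These are shares of captured transcripts, since UMIs are counted per molecule and were not divided by transcript length.

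In embryoid PrE-like cells the proteases besides Ctsl took more of the total: Ctsl made up 50.4%, Ctsb 11.3%, Lgmn 9.51% and Ctsh 9.30%, and the 8 genes took 0.594% of all UMIs. In the blastocyst PrE-like cells Lgmn and Ctsh made up 4.76% and 0.753%. Cell by cell, 371 of 376 TE-like cells (98.7%, 96.9 to 99.6) held more Psap than Ctsl UMIs, against 2 of 446 blastocyst PrE-like cells (0.448%) and 64 of 4699 embryoid PrE-like cells (1.36%). EPI-like cells were divided, with 93 of 258 (36.0%) in the blastocyst and 20 of 108 (18.5%) in the embryoid.

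**Figure D2:**
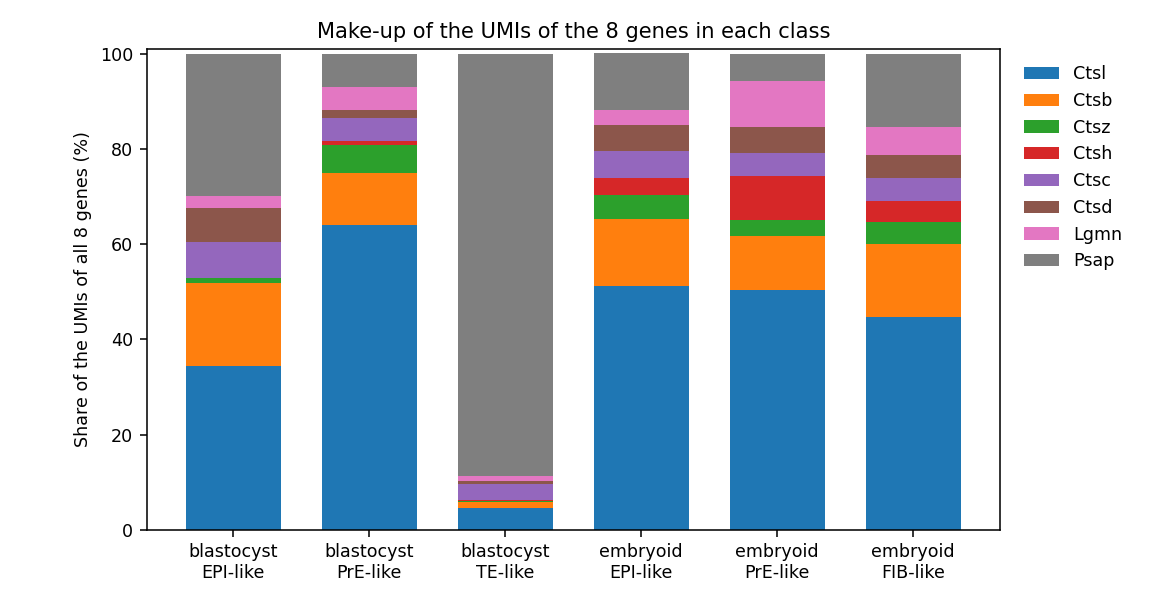
Share (%) that each gene takes of the UMIs of all 8 genes, by cell class, stacked to 100%. Psap fills 88.6% of the TE-like bar, and Ctsl is the largest part of each of the other bars, from 34.5% in blastocyst EPI-like to 64.0% in blastocyst PrE-like cells.

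The series sets out to characterise the 3 lineages of the blastocyst, and the first comparison was TE-like with EPI-like cells. Psap was 26.0-fold higher in TE-like cells, a log2 ratio of 4.69 (95% interval 4.59 to 4.81) after adding 1 CPM to both levels. Lgmn (1.92, 1.56 to 2.40) and Ctsc (1.91, 1.69 to 2.17) were also at least 2-fold higher, as was Ctsh (3.33), whose ratio rests on 46 UMIs against 1 and has a counting interval of 2.53 to 10.42. Ctsl (0.20), Ctsz (0.81), Ctsd (-0.31) and Ctsb (-0.54) were less than 2-fold apart. Counting differences of 2-fold or more, 4 of the 8 genes lay above and 0 below. The background was 11.5% above and 20.6% below among the 17825 genes with a UMI (15.1% and 23.1% of those with at least 20 CPM). The median log2 ratio was 1.36 for the 8 and -0.302 for all genes. No test can be made with 1 library, and intervals cover counting error only. The median gene with at least 10 CPM in both classes lay at -0.266 here and at -0.32 for TE-like against PrE-like cells. Median-of-ratios scaling, which sets that gene to 0, put Ctsz at 1.06 and so made 5 of the 8 genes higher here.

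Several partners of the saposins were higher in TE-like than in EPI-like cells. Of 12 enzymes and cofactors of sphingolipid breakdown, 6 stood 2-fold or more above their EPI-like level and 0 below, median 0.83. Gm2a, the cofactor that presents gangliosides to hexosaminidase, stood at 2474 CPM against 61.38 CPM (log2 ratio 5.31, 5.11 to 5.57). Smpd1, acid sphingomyelinase, stood at 198.0 against 3.789 CPM (5.38, 4.82 to 6.77), and the sialidase Neu1 at 187.4 against 14.02 CPM (3.65, 3.26 to 4.26). The 3 TE-like clusters held 2579, 3318 and 676.5 CPM of Gm2a in the order largest, 77-cell and 43-cell cluster, so that the cluster lowest in Psap was also lowest in Gm2a.

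Among 24 other soluble hydrolases 6 were higher and 1 lower, with Pla2g15, a lysosomal phospholipase, at 95.91 against 3.41 CPM and the mannosidase Manba at 9.48 against 200.8 CPM. Lysosomal membrane genes counted 5 of 15 higher and 1 lower, and subunits of the proton pump 2 of 16 higher and 0 lower. Of the cathepsins outside the 8, 7 of 18 symbols matched. BC051665 stood at 951.0 CPM against 0.7578 CPM, and Ctsll3 at 124.1 CPM against 0 UMIs, at least 109-fold higher against a floor of 3 UMIs. Their transcripts are 86.0% identical to each other and share a run of 74 bases, so reads could be split between them, while the longest run either shares with Ctsl is 17 bases. The cysteine protease inhibitors counted 5 of 9 with a UMI higher and 1 lower, led by the stefin Csta at 213.3 against 0.3789 CPM.

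PrE-like cells of the blastocyst carried more protease RNA than EPI-like cells. Ctsl was 7.64-fold higher (log2 ratio 2.93, 2.83 to 3.04), Ctsz 22.6-fold (4.35, 3.91 to 5.15), Lgmn 7.56-fold (2.86, 2.53 to 3.33), Ctsc 2.68-fold (1.41, 1.18 to 1.67) and Ctsb 2.61-fold (1.38, 1.22 to 1.55). The ratio of Ctsh was 4.31 with a counting interval of 3.61 to 11.43. Ctsd (0.05, -0.24 to 0.35) and Psap (-0.09, -0.23 to 0.05) were level within counting error. In total 6 of the 8 lay 2-fold or more above and 0 below, median 2.13, beside 11.2% and 10.6% of all genes (13.5% and 10.1% of those with at least 20 CPM) and a median of 0.025.

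RNA set free by other cells can enter the well of a cell. Levels in EPI-like cells were therefore given as a percentage of the PrE-like level, for markers and for the genes described here. Such a percentage compares levels only and does not show where the RNA came from. The 18 primitive endoderm markers stood in blastocyst EPI-like cells at 0.0978% to 10.7% of their PrE-like level (median 1.4%). Ctsh (1.44%) and Ctsz (4.43%) lay inside that range, while Ctsl (13.1%), Lgmn (13.2%), Ctsc (37.4%), Ctsb (38.3%), Ctsd (96.5%) and Psap (106%) lay above it. Ctsz stood at 3.105 and 18.46 CPM in the 2 EPI-like clusters. The part of RNA from PrE-like cells in the EPI-like levels was not tested.

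Of 11 endocytosis genes 7 lay 2-fold or more above their EPI-like level in PrE-like cells and 0 below, but 4 of them (Cubn, Amn, Dab2 and Lrp2) belong to the markers that named the class. Of the other 7 genes 3 lay above and 0 below, with Lrpap1, a chaperone of the uptake receptors, at 830.6 against 100.4 CPM. Atp6v0a1, a subunit of the proton pump, stood at 142.0 against 14.78 CPM (log2 ratio 3.18), while 14 of the 16 subunits were less than 2-fold apart. Cst3, cystatin C, a secreted inhibitor of cysteine cathepsins, stood at 1186 against 223.9 CPM (2.40, 2.28 to 2.53). Sphingolipid hydrolases counted 7 of 12 higher and 1 lower, including Neu1, the ceramidase Asah1 and Glb1, and other hydrolases 7 of 24 higher and 3 lower. Gnptab, which adds the mannose 6-phosphate tag that sends hydrolases to the lysosome, stood at 94.59 against 21.22 CPM. Of the MiT/TFE factors, Tfec had 69.79 CPM in PrE-like and no UMI in EPI-like cells, at least 61.4-fold higher, and Mitf had 4.377 CPM in PrE-like against 56.83 CPM in EPI-like cells.

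Set directly against each other, TE-like and PrE-like cells of the blastocyst differed in opposite directions for Psap and for 3 of the 7 proteases. Psap was higher in TE-like cells (log2 ratio 4.78, 4.70 to 4.88). Ctsz (-3.54, -4.02 to -3.24), Ctsl (-2.73, -2.82 to -2.64) and Ctsb (-1.92, -2.10 to -1.77) were lower. With 1 CPM added, Ctsh (-0.98), Lgmn (-0.94), Ctsd (-0.36) and Ctsc (0.50) were less than 2-fold apart. Without it Ctsh was 2.05-fold apart. Thus 1 of the 8 lay above and 3 below by 2-fold or more, median -0.96, beside 8.72% and 17.6% of all genes (11.6% and 20.6% with at least 20 CPM) and a median of -0.314. The sphingolipid enzymes and cofactors divided, with 5 of 12 higher, 4 lower and a median of -0.27: Gm2a stood at 6.01 and Asah1 at -2.05. Among inhibitors Cst3 went with the PrE-like cells (169.5 CPM in TE-like) and Cstb, stefin B, with the TE-like cells (4769 against 942 CPM). Rragd, a GTPase that ties nutrient signals to the MiT/TFE factors, stood at 213.6 CPM in TE-like against 12.4 CPM in PrE-like cells.

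**Figure D3:**
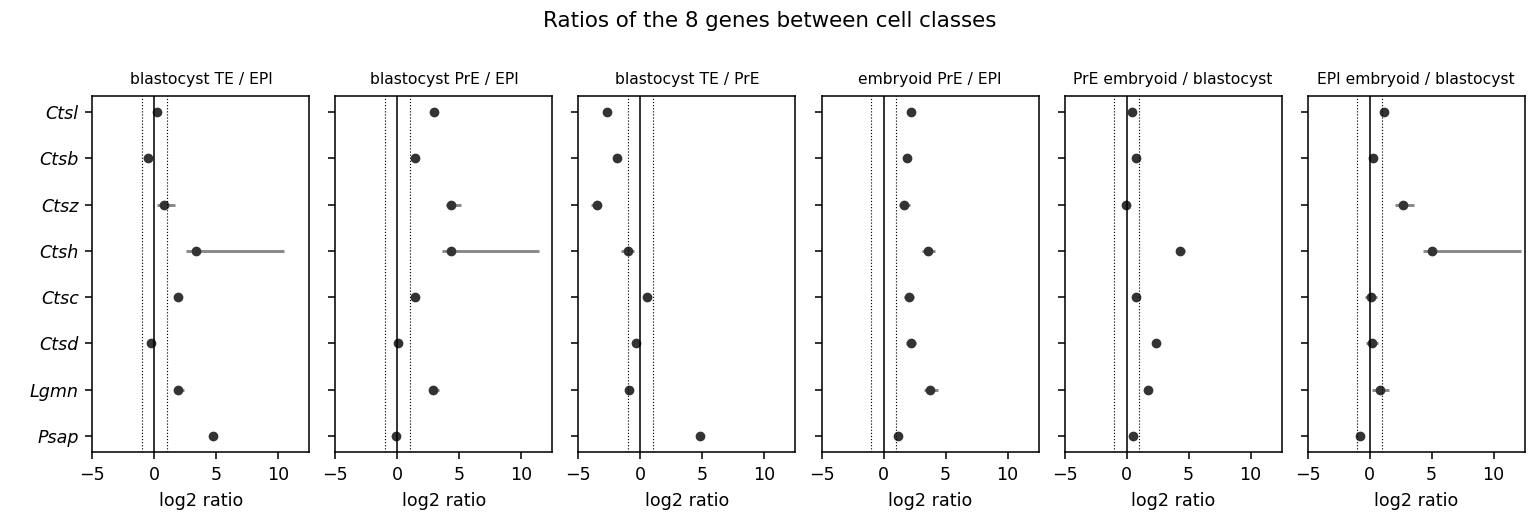
Log2 ratio of each gene (x axis, 1 CPM added) in 6 comparisons of cell classes, with exact 95% counting intervals as bars; dotted lines mark 2-fold. Psap stands apart to the right in both comparisons that involve TE-like cells (4.69 and 4.78), and all 8 genes lie right of the 2-fold line for embryoid PrE-like against embryoid EPI-like cells.

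The comparison of embryoid with blastocyst PrE-like cells set the cultured cells beside the embryo class named by the same markers. The embryoid class pools 7 clusters, so its ratios depend on their mix. Over these clusters Ctsh ran from 143.3 to 902.2 CPM and Ctsd from 179.2 to 850.9 CPM. Ctsh was 21.1-fold higher in the embryoid (log2 ratio 4.34, 4.12 to 4.68), Ctsd 5.22-fold (2.36, 2.20 to 2.57) and Lgmn 3.40-fold (1.76, 1.66 to 1.88). Ctsb (0.80), Ctsc (0.77), Psap (0.52) and Ctsl (0.42) were less than 2-fold higher, and Ctsz was level (-0.04, -0.14 to 0.07). Hence 3 of the 8 lay above and 0 below by 2-fold or more, median 0.79, beside 12.3% and 8.6% of all genes (16.4% and 11.7% with at least 20 CPM) and a median of 0.055. Embryoid and blastocyst differ in library, depth and preparation as well as origin, and 12 immediate early genes, which cell dissociation can induce, summed to 6430 CPM in the embryoid cells against 582 CPM. Of these genes 10 lay 2-fold or more above and 1 below, none was at 0, and Jun stood at 1625 against 19.45 CPM. Their part in the protease differences was not tested.

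Other lysosomal groups were also higher in the embryoid PrE-like cells. Other soluble hydrolases counted 12 of 24 at least 2-fold higher and 0 lower (median 1.00), led by Lipa, the acid lipase, at 79.51 against 3.161 CPM, Naglu at 40.82 against 2.675 CPM and Manba at 63.95 against 13.62 CPM. Membrane genes counted 7 of 15 higher and 0 lower (median 0.99), with Lamp2 at 368.1 against 66.62 CPM. Ctsf, a further cysteine cathepsin, stood at 29.26 against 2.918 CPM. Igf2r, the receptor that carries tagged hydrolases to the lysosome, stood at 267.7 against 116.0 CPM. The proton pump counted 1 of 16 higher and 0 lower (median 0.52) and the endocytosis genes 0 of 11 higher and 2 lower (median -0.07), both of them markers of the class.

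Between EPI-like cells of the libraries, Ctsl, Ctsz and Ctsh were higher in the embryoid by 2-fold or more. Ctsl was 2.21-fold higher in the embryoid (log2 ratio 1.14, 0.98 to 1.31), Ctsz 7.02-fold (2.68, 2.07 to 3.59) and Ctsh 5.04 on the log2 scale (4.29 to 12.22), again against a single UMI. Psap was lower (-0.75, -1.06 to -0.46) and Lgmn higher (0.84, 0.18 to 1.54), both by less than 2-fold, and the intervals of Ctsb, Ctsc and Ctsd included no difference. With 3 of 8 above and 0 below by 2-fold or more, median 0.56, the background was 19.1% and 12.8% of all genes (11.7% and 9.12% with at least 20 CPM), with a median of -0.011. The Ctsl ratio was 0.85 when every cell was weighted alike.

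Primitive endoderm markers stood in embryoid EPI-like cells at 3.34% to 16.5% of their embryoid PrE-like level, against 0.0978% to 10.7% in the blastocyst. Ctsh (8.04%) and Lgmn (7.13%) of the embryoid EPI-like cells lay inside the embryoid range. Ctsd (21.5%), Ctsl (21.6%), Ctsc (24.2%), Ctsb (26.6%), Ctsz (31.9%) and Psap (43.7%) lay above it. Col4a1, a basement membrane gene of the endoderm, had a UMI in 20.2% of thinned embryoid EPI-like and 5.24% of thinned blastocyst EPI-like cells. The part of RNA from PrE-like cells in the embryoid EPI-like levels was not tested.

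Inside the embryoid all 8 genes stood 2-fold or more above their EPI-like level in PrE-like cells, from 1.19 for Psap (0.92 to 1.48) to 3.78 for Lgmn (3.29 to 4.39), with Ctsh at 3.61, Ctsl at 2.21, Ctsd at 2.20, Ctsc at 2.03, Ctsb at 1.90 and Ctsz at 1.63. The median was 2.12, and 0 lay below, beside 14.8% and 13.8% of all genes (20.2% and 13.0% with at least 20 CPM) and a median of 0.108. Ctsd, level between these lineages in the blastocyst, was 4.66-fold apart in the embryoid. Of 24 other hydrolases 14 were higher and 1 lower, and of 16 proton pump subunits 5 were higher and 0 lower. Igf2r stood at 267.7 against 45.82 CPM. Tfec had 33.18 CPM in PrE-like cells and no UMI in EPI-like cells, at least 7.96-fold higher against a floor of 3 UMIs.

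The 7 PrE-like clusters of the embryoid were not alike in their proteases. Ctsl varied 1.30-fold between them (2632 to 3420 CPM), Ctsb 1.36-fold (577.3 to 784.8 CPM) and Ctsz 1.48-fold (155.1 to 228.9 CPM). Ctsh varied 6.30-fold (143.3 to 902.2 CPM), Ctsc 5.82-fold (79.79 to 464.4 CPM), Ctsd 4.75-fold (179.2 to 850.9 CPM), Psap 2.62-fold (220.6 to 578.5 CPM) and Lgmn 2.25-fold (355.0 to 799.4 CPM). The highest Ctsh, Ctsc and Lgmn levels were in 1 cluster, led by Tfec and Cubn, and the highest Ctsd and Psap levels in another, led by Ctgf and F3.

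This variation ran with cubilin (Cubn), the uptake receptor of absorptive endoderm. The split by Cubn was chosen after the levels had been seen, and is a description. Here 4 clusters of 2454 cells held 62.9 to 232 CPM of Cubn and 3 clusters of 2245 cells held 4.99 to 24.7 CPM. In the Cubn-high clusters Ctsc stood at 437.1 against 104.7 CPM (log2 ratio 2.05, 1.97 to 2.15), Ctsh at 783.5 against 253.6 CPM (1.62, 1.57 to 1.69) and Lgmn at 718.4 against 365.4 CPM (0.97, 0.92 to 1.03). Ctsd stood at 205.8 against 476.1 CPM (-1.21, -1.28 to -1.15) and Psap at 241.4 against 474.7 CPM (-0.97, -1.04 to -0.91). Ctsl (0.06), Ctsb (0.08) and Ctsz (0.22) were nearly level. By 2-fold or more, 2 of the 8 lay above and 1 below, beside 1.62% and 2.18% of all genes (2.3% and 2.06% with at least 20 CPM).

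Each of the 4 Cubn-high clusters held more Ctsc, Ctsh and Lgmn, and less Ctsd and Psap, than each of the 3 Cubn-low clusters. Ctsc ran from 262.0 to 464.4 CPM in the first and from 79.79 to 114.9 CPM in the second, Ctsh from 563.6 to 902.2 and from 143.3 to 327.0 CPM, and Lgmn from 506.7 to 799.4 and from 355.0 to 388.5 CPM. For Ctsd the ranges were 179.2 to 232.4 and 345.7 to 850.9 CPM, and for Psap 220.6 to 266.9 and 436.1 to 578.5 CPM. The Cubn-high clusters include the shallowest of the 7, with a median of 2057 UMIs per cell, and the medians of both sides were 5229.5 and 4520 UMIs.

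The 2 PrE-like clusters of the blastocyst were set against each other as the higher and the lower in Cubn, at 749 and 225 CPM. The cut of 41.6 CPM that parted the embryoid clusters was not used here. The blastocyst Cubn-low cluster thus held more Cubn than the embryoid Cubn-high clusters together (207 CPM), and the names are relative to each library. In the Cubn-high cluster of 142 cells Ctsh stood at 57.83 against 12 CPM (log2 ratio 2.18, 1.66 to 2.90), Lgmn at 270.4 against 119.0 CPM (1.18), Ctsz at 332.9 against 147.6 CPM (1.17) and Ctsc at 276.6 against 123.9 CPM (1.15). Psap stood at 114.1 against 294.0 CPM (-1.36, -1.63 to -1.11). Ctsl (-0.12), Ctsb (-0.13) and Ctsd (0.24) were less than 2-fold apart. That made 4 higher and 1 lower of the 8, beside 3.7% and 10.4% of all genes (2.45% and 4.6% with at least 20 CPM). With every cell weighted alike, Ctsc (0.80), Ctsz (0.96) and Lgmn (0.86) were under 2-fold, and with at most 10% mitochondrial UMIs Psap was at -0.96.

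Ctsc, Ctsh and Lgmn were thus higher, and Psap lower, on the side higher in Cubn within each library, though the sides were drawn by unlike rules. Ctsd was lower there only in the embryoid, and Ctsz was over 2-fold higher only in the blastocyst. The difference between the libraries was not tested. Among the MiT/TFE factors Tfec went with Cubn: it stood at 57.7 against 1.338 CPM in the embryoid and at 195.4 against 13.06 CPM in the blastocyst. Tfec is among the leading genes of the blastocyst cluster and of 1 embryoid cluster on that side. The adaptor Dab2, like Cubn a primitive endoderm marker, stood at 1459 against 514.8 CPM in the embryoid and 2205 against 834.8 CPM in the blastocyst. Gm2a, which accompanied Psap in the trophectoderm, stood with it in the embryoid, at 37.58 CPM in Cubn-high against 131.1 CPM in Cubn-low clusters, but not in the blastocyst, at 43.76 against 34.59 CPM.

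**Figure D4:**
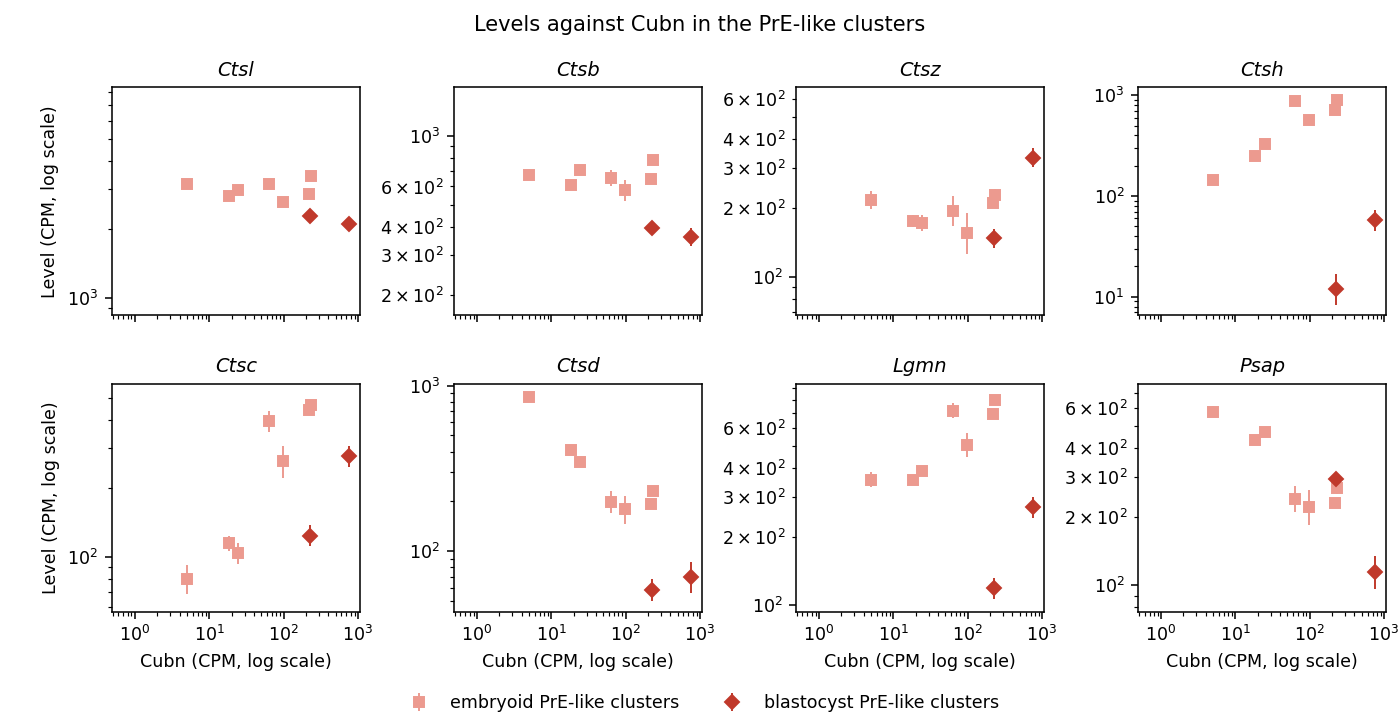
Level of each gene (CPM, log axis with its own range in each panel, at least 10-fold wide) against Cubn (CPM, log axis) in the 7 embryoid and 2 blastocyst PrE-like clusters; bars are exact 95% Poisson intervals. Among the embryoid clusters Ctsc, Ctsh and Lgmn are higher in the 4 with 62.9 CPM of Cubn or more and Ctsd and Psap in the 3 with 24.7 CPM or less, while Ctsl stays between 2632 and 3420 CPM.

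Across the 14 profiles of 3 blastocyst classes and 11 embryoid clusters, the patterns of Ctsl, Ctsb, Ctsz, Ctsh and Lgmn were alike. Pearson's r of log2 levels ran from 0.82 (Ctsb and Ctsh) to 0.95 (Ctsb and Ctsl). Ctsd had r of 0.85 with Ctsb and 0.81 with Ctsl, and 0.64 to 0.73 with Ctsh, Ctsz and Lgmn. Within the embryoid PrE-like clusters these genes were less alike, with Ctsl varying 1.30-fold and Ctsh 6.30-fold. Over these 14 profiles Psap followed none of the other genes described here (r from -0.36 to 0.07). The profiles include the TE-like class, where Psap stood at 6581 CPM. Among the embryoid PrE-like clusters alone, Psap and Ctsd were both higher in the Cubn-low clusters. Ctsc was closest to Lgmn (0.67). Profiles of 1 library share its depth and background, so that these values are a description. Over 6801 genes with at least 50 CPM in a profile, Ctsl was most like Hkdc1 (0.982), Cst3 (0.978) and Scube2 (0.969), and Ctsb most like Ralb, Ctns (the lysosomal cystine transporter) and Canx (0.971 to 0.973). Ctsz was nearest to Pth1r (0.975), Adora1 (0.971) and Foxa2 (0.968), and Lgmn to Tspan9 (0.977), Tmbim4 (0.976) and Stx7 (0.968). The nearest genes were Morc4 (0.972), Gbas (0.953) and Klhl2 (0.952) for Ctsh, Arhgap21 (0.977), Pld3 (0.957) and Mknk2 (0.95) for Ctsd, Sptssa (0.937), Rcan1 (0.900) and Npl (0.849) for Ctsc, and Vasp (0.946), Gm2a (0.945) and Tmem50b (0.940) for Psap.

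In the GENCODE M21 annotation of GRCm38 the 8 protein-coding genes lie on 7 chromosomes, and Ctsc and Ctsd share chromosome 7. Psap spans 10:60277627-60302597 on the plus strand and Ctsl 13:64359337-64370890 on the minus strand. Ctsb overlaps Fdft1 on the opposite strand over 774 bases, and Ctsz overlaps Nelfcd over 10 bases. Ctsl overlaps a processed pseudogene on its own strand over 395 bases and an antisense transcript over 1971 bases, Ctsc the noncoding Gm26522 over 4743 bases, and Ctsd the gene model Gm49369 on its own strand over 6757 bases. Whether strand was used in counting is not given in the sources used here, and neither is the annotation. Strand could not part the genes that overlap on the same strand. Reads in these stretches therefore cannot be assigned with certainty. Fdft1 had 1083 UMIs in the embryoid and 126 in the blastocyst library.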

How the data were processed

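Both libraries were deposited as counts of UMIs per gene symbol and cell barcode, as whole numbers of 1 or more; columns of other samples numbered 0. Build mm10, STAR 2.7.1a, featureCounts 1.6.4, UMI-tools 1.0.1 and bcl2fastq 2.19.1.403 were used, per the submitters' processing notes, with annotation, strand setting and cell calling not given in the sources used here. In total 28923930 embryoid and 11047555 blastocyst UMIs were deposited.

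Barcodes with at least 1000 UMIs, 500 genes and at most 25% mitochondrial UMIs were kept. Scrublet (scanpy 1.11.5) called 17 blastocyst barcodes (1.55%), which were removed, and 0 embryoid barcodes, so doublets were in effect not removed there. Each library was clustered alone on 2000 variable genes without ribosomal and mitochondrial genes and without the 8 genes and all other listed genes (30 components, 20 neighbours, leidenalg 0.10.2, resolution 1.0, seed 1). Markers counted as high at 20 CPM or more and at 0.333 or more of their highest cluster level, and clusters were named for the class whose detected markers were most often high, given at least 3 high, 5 detected and a share of 0.5. Clusters whose 10 leading genes held more markers of another class, or whose median mitochondrial share fell below 0.1 of that of the library, stayed unnamed. These scoring rules were set after marker levels were seen, and the last minima leave 1 embryoid cluster unnamed. Of 97 markers 88 matched a symbol.

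UMIs were summed by class or cluster and scaled to CPM, and log2 ratios were taken after adding 1 CPM. Intervals of 95% (exact Poisson, exact ratio of counts, Clopper-Pearson) cover counting error only, and the floor is 3 UMIs per summed profile. The interval of a ratio is that of the counts without the added CPM, so the ratio of a gene near 0 can lie close to or outside it. Shares of cells used cells thinned to 2000 UMIs, with shallower cells left out: in the blastocyst 10 EPI-like, 36 PrE-like and 12 TE-like cells, and in the embryoid 4 EPI-like, 280 PrE-like and 11 FIB-like cells. With 1 library per group no p-value is given. The ratio intervals were run on simulated Poisson counts, which is the form of error they assume. That run holds no variation between cells or libraries, so it cannot show how the intervals cover such variation. Python 3.11.15 was used.

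The 8 genes, the gene lists and the markers were chosen with earlier results of these data known. All 8 were named. Of each further list, the 3 genes with the largest ratio among those with at least 20 CPM in a comparison could be named, with the 3 genes most alike in pattern to each of the 8; Rragd against PrE-like cells, Asah1, Glb1, Mitf, Lrpap1, Lrp2, Ctsf, Amn, Dab2, Gm2a and Igf2r were in places named beyond this rule after their values were seen.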

Additional observations from a re-analysis of the deposited data

How the results depend on the processing

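In the 6 class comparisons and the 2 Cubn splits, no gene at least 2-fold apart changed direction under the 12 alternatives tried (cell filters, doublet calls kept, Leiden resolutions 0.5 and 2.0, listed genes among the variable genes, median-of-ratios scaling, every cell weighted alike, 10 CPM added, a 20 CPM minimum and, chosen after seeing the data, leaving out barcodes in both files or the shallowest embryoid PrE-like cluster). Adding 10 CPM and the 20 CPM minimum could not change a direction. Leaving out the embryoid cluster could not alter comparisons within the blastocyst. Of the 36 ratios at least 2-fold apart, 31 stayed so in each alternative that gave a value. The other 5 were Ctsl in embryoid against blastocyst EPI-like cells (1.14, then 0.85 with every cell weighted alike) and 4 of the blastocyst Cubn split, given above. With every cell weighted alike, 2 rather than 5 genes were 2-fold apart in the blastocyst Cubn split. In the embryoid split 5 rather than 3 were so at resolution 2.0 and 5 with the listed genes among the variable genes. Between TE-like and PrE-like cells of the blastocyst, 6 rather than 4 genes were 2-fold apart with at most 10% mitochondrial UMIs, and 5 at resolution 2.0. Adding 10 CPM lowered the Ctsh ratios against blastocyst EPI-like cells to 1.14 (TE-like), 1.80 (PrE-like) and 2.39 (embryoid EPI-like). Depth sets the shares of cells: of 48 shares (8 genes in 6 classes) 8 reached 50% at 2000 UMIs, 3 at 1000 and 21 at 4000. No paired analysis was possible because each group has 1 library.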

Other observations

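The 2 unnamed embryoid clusters are in none of the comparisons above. One of 82 cells, led by Lgals3, Anpep and Abcg1, had a median mitochondrial share of 0.193%, against 6.54% in the library. It held 5795 CPM of Ctsl, 1272 CPM of Ctsb, 838.7 CPM of Ctsd and 684.0 CPM of Lgmn, with 580.9 CPM of Psap. Its Ctsl and Ctsb levels were above those of each of the 7 PrE-like clusters. It also held 14 of 18 primitive endoderm markers at a high level. The other, of 334 cells led by Slpi, Fbln2 and Vim, held 735.0 CPM of Ctsl, 439.2 CPM of Ctsb, 317.4 CPM of Psap, 183.7 CPM of Ctsc and 116.3 CPM of Ctsd, with Ctsl close to the FIB-like level of 733.4 CPM. Of its cells 96 of 334 (28.7%) held more Psap than Ctsl UMIs.

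Of 12 blood cell markers, 6 matched a symbol (Cd68, Csf1r, Fcer1g, Lyz2, C1qa and Laptm5), and Cd68 is also a lysosomal membrane gene. These 6 summed to 12.8 to 93.2 CPM in the 6 named classes and to 213 CPM in the 82-cell cluster, with 3 of the 6 at 0 there. A list of 6 genes says little about how many macrophages a class holds.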
